A study of Homo sapiens with 4 samples.

Results

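The growth hormone receptor GHR, the oncostatin M receptor OSMR, the leukaemia inhibitory factor receptor LIFR, the prolactin receptor PRLR and the interleukin 7 receptor alpha chain IL7R lie together on the short arm of chromosome 5. These 5 genes were taken, by name and place, from the 78724 rows of a deposited count table of ribosome-protected fragments (footprints). A375, the established human cell line used, derives from a melanoma. Cells were kept for 48 h in arginine-free medium (2 libraries) or in control medium (2 libraries). The arginine-free medium was an RPMI formulation lacking amino acids to which glucose, pyruvate and all amino acids but arginine were returned, and the labels give no composition for the control medium. The labels do not say whether the libraries of a group were separate cultures, so the p-values measure only the spread between libraries, which may be technical.

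All 5 encode class I cytokine receptors, single-pass membrane proteins without kinase activity of their own that signal through bound Janus kinases and STAT transcription factors. GHR and PRLR act as homodimers and work mainly through JAK2 and STAT5, and GHR drives growth and IGF1 production. LIFR and OSMR each pair with the shared chain IL6ST (gp130), with LIFR serving leukaemia inhibitory factor and OSMR serving oncostatin M. IL7R pairs with the common gamma chain and is best known for the survival of developing and resting lymphocytes.

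The genes were chosen by name, place and read total, with earlier results of these data known. A row under 20 reads over the 4 libraries is given as counts only. LIFR, with 65 reads, is the lowest row above that minimum, and IL7R, with 1 read, is the highest row below it. Values for the media are therefore a description of chosen genes, and the adjusted p-values beside them come from a fit over all 2526 tested rows. Total counts were 234766 and 192006 in arginine-free medium, against 105004 and 217989 in control medium. The coordinates are GRCh38, while the submitters' processing notes name GRCh37 for the reads. A row is read as its gene here only within 5 nuclear stretches in which neighbouring broadly expressed genes carry reads. Those on chromosome 6 are the histone gene clusters H1-1 to H4C3 and H2BC7 to H2BC10, and others lie on chromosomes 9 and 19. The one on chromosome 5 runs from SDHA to HMGCS1. In that stretch 34.9% of 129 protein-coding rows had no read, against 72.7% of 17914 protein-coding rows outside the stretches. The stretches were chosen because their genes carry reads, so this contrast follows from the choice. It does not test whether a row holds the reads of its gene. A row may still hold only part of the reads of its gene.

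The start of the GHR row, whose footprints were lower in arginine-free medium, can be set beside the starts of the LIFR and OSMR rows. The windows below are from RefSeq (GRCh38.p14), each of 300 bases around an annotated start, read on the strand of the gene. Capitals mark matches, on either strand, to TGATGNAA, the core of the element bound by ATF4 with C/EBP proteins in the amino acid response, and to TTCNNNGAA, the element bound by STAT dimers.
GHR, chr5:42423189-42423488, plus strand: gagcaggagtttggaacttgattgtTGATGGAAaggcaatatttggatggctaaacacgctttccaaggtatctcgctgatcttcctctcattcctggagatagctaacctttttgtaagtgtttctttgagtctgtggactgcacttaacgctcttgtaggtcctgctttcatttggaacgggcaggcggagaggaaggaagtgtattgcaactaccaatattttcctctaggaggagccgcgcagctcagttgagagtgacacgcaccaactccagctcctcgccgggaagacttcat
LIFR, chr5:38595356-38595655, minus strand: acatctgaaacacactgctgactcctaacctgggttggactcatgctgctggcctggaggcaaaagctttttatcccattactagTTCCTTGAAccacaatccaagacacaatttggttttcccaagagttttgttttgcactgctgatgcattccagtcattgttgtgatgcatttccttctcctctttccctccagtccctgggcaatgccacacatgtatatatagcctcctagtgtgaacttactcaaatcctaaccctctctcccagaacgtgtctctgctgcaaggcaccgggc
OSMR, chr5:38845762-38846061, plus strand: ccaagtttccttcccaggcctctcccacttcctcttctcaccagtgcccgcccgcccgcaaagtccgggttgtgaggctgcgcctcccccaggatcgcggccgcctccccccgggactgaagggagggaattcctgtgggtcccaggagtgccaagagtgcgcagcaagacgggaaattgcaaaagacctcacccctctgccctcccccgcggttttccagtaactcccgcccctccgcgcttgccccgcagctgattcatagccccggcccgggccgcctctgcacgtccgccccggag
The GHR window held 1 match to TGATGNAA and none to TTCNNNGAA. The LIFR window held 1 match to TTCNNNGAA and none to TGATGNAA, and the OSMR window held neither. Of 35116 such windows of all genes, 3.62% held TGATGNAA and 7.66% held TTCNNNGAA. GHR has 7 annotated windows, of which 1 held TGATGNAA and 1 held TTCNNNGAA. LIFR has 3 windows, of which 2 held TTCNNNGAA and none TGATGNAA. The 1 window of IL7R, which had next to no footprints, also held TGATGNAA, and neither of the 2 PRLR windows held a match. Which start A375 cells use was not measured here, and the matches are letters in a window only.

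Footprints on GHR were 10.2-fold lower in arginine-free medium by the fitted change. The row (ENSG00000112964.14, chromosome 5, 42423439 to 42721878, plus strand) held 8 and 2 reads in arginine-free libraries 1 and 2, against 29 and 51 in control libraries 1 and 2. Levels were scaled by each library's total over the tested rows and its TMM factor (CPM). They were 34.6 and 12.6 CPM in arginine-free medium, against 273 and 262 CPM in control medium. Both arginine-free libraries were low, both control libraries were high, and the groups did not overlap.

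GHR averaged 23.6 ± 15.6 CPM in arginine-free medium and 267 ± 8.31 CPM in control medium (SD, n = 2 each). The log2 fold change of arginine-free over control was -3.35 (SE 0.42, 95% interval -4.25 to -2.46, edgeR quasi-likelihood adjusted p = 4.25e-05). The difference was larger than the spread between libraries. GHR passed the filter on low counts only through the control libraries, where it was high. From pooled reads alone, 10 in arginine-free against 80 in control medium, the level was 10.4-fold lower, with an exact 95% interval of 5.35 to 22.4 that covers counting error only. Footprints count ribosomes on the transcript, and no matched RNA level was used here, so less transcript and fewer ribosomes per transcript cannot be told apart. Fewer cells with the transcript and less of it per cell cannot be told apart either.

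OSMR had the most reads of the 5 receptor rows and did not pass the test. Its row (ENSG00000145623.13, chromosome 5, 38845858 to 38935641, plus strand) held 151 and 90 reads in arginine-free medium, against 81 and 168 in control medium. The levels were 654 and 565 CPM in arginine-free medium, against 763 and 862 CPM in control medium. Both arginine-free libraries were below both control libraries, by a margin far smaller than that of GHR.

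The OSMR means were 610 ± 62.7 CPM in arginine-free medium and 812 ± 69.5 CPM in control medium (SD, n = 2 each). The log2 fold change was -0.42 (SE 0.21, edgeR adjusted p = 0.15), with a 95% interval of -0.87 to 0.04. OSMR passed when only rows of at least 50 counts in every library of one group were tested, at -0.65 (edgeR adjusted p = 0.0296).

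LIFR also did not pass, with few reads behind each value. Its row (ENSG00000113594.10, chromosome 5, 38474668 to 38595404, minus strand) held 14 and 14 reads in arginine-free medium, against 12 and 25 in control medium. The levels were 60.6 and 87.9 CPM in arginine-free medium, against 113 and 128 CPM in control medium, and the groups did not overlap.

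LIFR averaged 74.3 ± 19.3 CPM in arginine-free medium and 121 ± 10.7 CPM in control medium (SD, n = 2 each). Its log2 fold change was -0.75 (SE 0.40, edgeR adjusted p = 0.162), with a 95% interval of -1.59 to 0.10. The antisense transcript LIFR-AS1 overlaps the gene and the counting did not use strand. The LIFR-AS1 row held 2 and 3 reads in arginine-free medium, against 0 and 1 in control medium.

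PRLR and IL7R had next to no footprints in either medium. PRLR (ENSG00000113494.17, chromosome 5, 35048756 to 35230487, minus strand) held 0 reads in all 4 libraries. IL7R (ENSG00000168685.15, chromosome 5, 35856891 to 35879603, plus strand) held 0 and 1 in arginine-free medium, against 0 and 0 in control medium. A count of 0 allows up to 3 reads, which is 13.0 and 18.8 CPM in arginine-free libraries 1 and 2, and 28.3 and 15.4 CPM in control libraries 1 and 2. Neither row was tested, and no change in them was detectable at this depth.

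PRLR and IL7R lay in a run of quiet rows. Between DNAJC21, with 94 reads, and LMBRD2, with 26, lay 7 protein-coding rows with 3 reads in all. These were AGXT2, PRLR, SPEF2, IL7R, CAPSL, UGT3A1 and UGT3A2, of which 5 had no read. AGXT2 and UGT3A1 encode enzymes of liver and kidney.

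**Figure D1:**
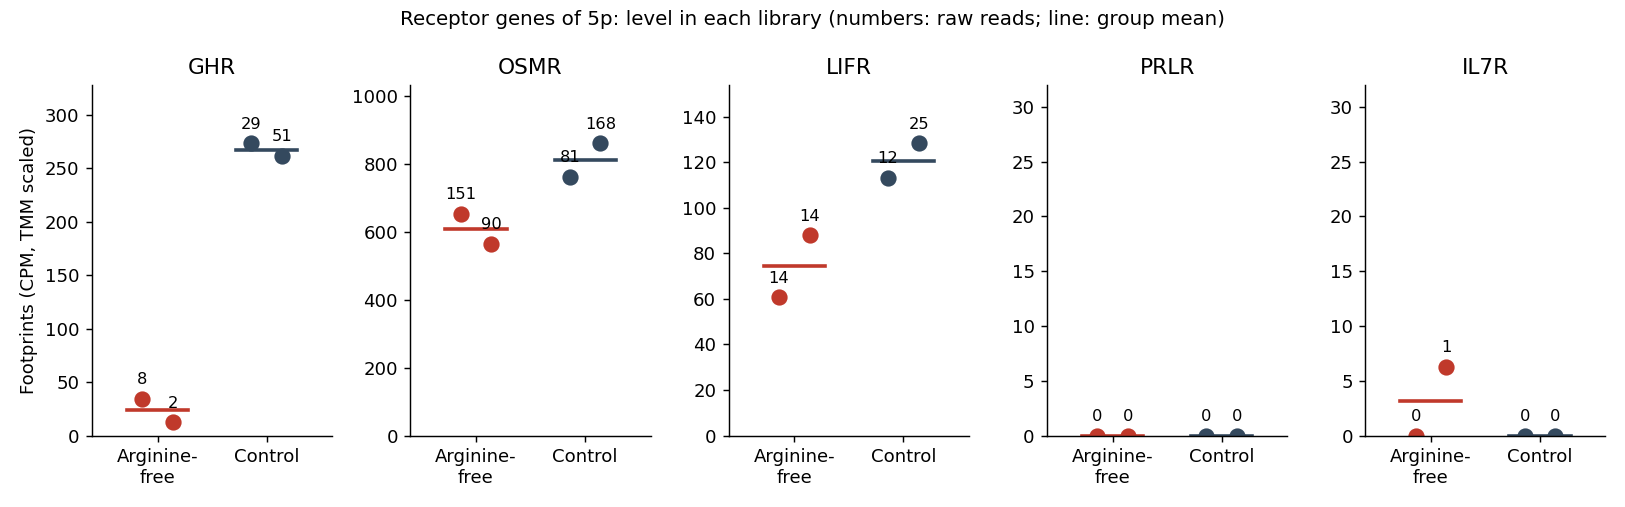
Level of each receptor gene in each library, in CPM with TMM factors, on a linear axis from 0 that differs between panels; points are libraries, lines are group means and printed numbers are raw reads. GHR stood at 34.6 and 12.6 CPM in arginine-free medium, against 273 and 262 CPM in control medium, while PRLR had no read.

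Per kilobase of exon, the OSMR row had the highest level in all 4 libraries. A row may hold only part of the reads of its gene, and that part may differ between genes. The order given here is therefore one of rows. In arginine-free medium OSMR stood at 106 and 92.0 CPM per kb, LIFR at 5.67 and 8.22, and GHR at 5.84 and 2.12. In control medium OSMR stood at 124 and 140 CPM per kb, GHR at 46.0 and 44.1, and LIFR at 10.6 and 12.0. GHR was thus above LIFR in both control libraries and, narrowly, in arginine-free library 1, and below it in arginine-free library 2. The lengths used include untranslated exon sequence, which footprints rarely cover, and the longest exon took 3426 of 5936 bases in GHR, 2770 of 6147 in OSMR and 7551 of 10697 in LIFR.

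Within a library, the reads of one receptor per 100 reads of OSMR do not depend on the depth or the scaling. GHR had 5.30 and 2.22 reads per 100 of OSMR in arginine-free medium, against 35.8 and 30.4 in control medium. LIFR had 9.27 and 15.6 in arginine-free medium, against 14.8 and 14.9 in control medium. The groups were apart for GHR and overlapped for LIFR. The mean log2 ratio to OSMR differed by -3.26 for GHR and by -0.31 for LIFR, arginine-free minus control. An exact two-sided permutation test with 2 libraries against 2 cannot give a p below 0.333, and no other test of these ratios was run.

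**Figure D2:**
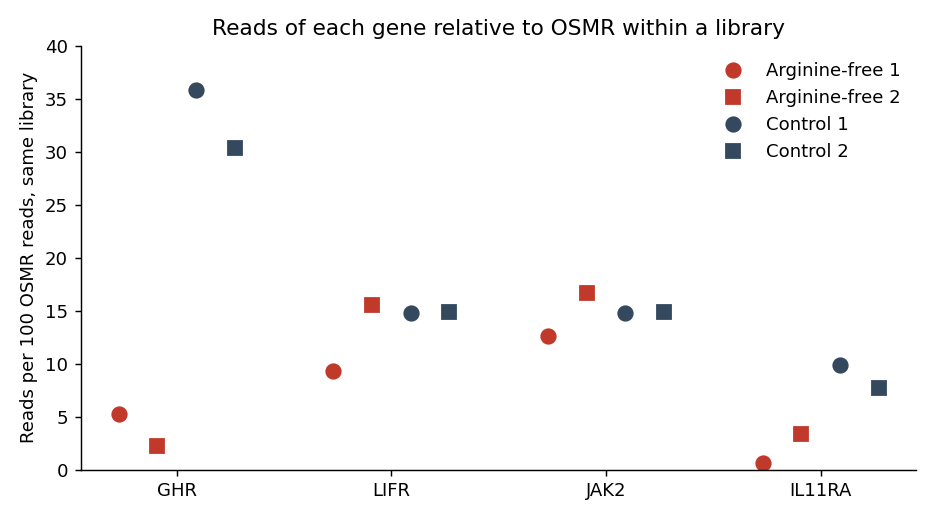
Reads of GHR, LIFR, JAK2 and IL11RA per 100 reads of OSMR in the same library, with circles for replicate 1 and squares for replicate 2. GHR lay at 5.30 and 2.22 in arginine-free medium, against 35.8 and 30.4 in control medium, and JAK2 lay between 12.6 and 16.7 in all 4 libraries.

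Of the 3 receptors tested, 1 was lower and 2 did not pass, and over all tested rows 16.9% were lower and 16.0% higher. In the stretches 23.5% of 196 tested rows were lower and 14.3% higher. All 3 had both arginine-free libraries below both control libraries, as did 865 of the 2526 tested rows, while 835 had both above. Nothing is read from these counts for 3 chosen genes. The median log2 fold change was -0.75 over the 3 and -0.03 over all tested rows. GHR had the 37th lowest log2 fold change of all 2526 tested rows, below their 5th percentile of -2.18. Among the 196 tested rows of the stretches it was the 12th lowest, and it lay inside their 5th percentile of -3.43. OSMR and LIFR lay between the 5th and the 95th percentile of both sets. The stretches include the histone gene clusters of chromosome 6, so their rows are not a general background. Among the 59 tested rows of the chromosome 5 stretch GHR was the 2nd lowest. It was the lowest of the 20 tested, named protein-coding rows of the window around the receptors.

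GHR was the 1 receptor row past the threshold on 5p, and it was not the only row near the receptors that was lower. Of the other 22 tested rows in the window around them, from 34 Mb to the row before HMGCS1, 1 was lower (4.55%) and 3 were higher (13.6%). The lower one, ENSG00000250722.6 (chromosome 5, 42799880 to 42825896), is the nearest tested row on the higher-coordinate side of GHR. It held 1 and 0 reads in arginine-free medium, against 8 and 14 in control medium (log2 fold change -4.49, SE 0.90, edgeR adjusted p = 0.00173). This row passed the filter on low counts only through the control libraries, where it was high. Without control library 2 it fell under the filter, and DESeq2 gave it no adjusted p. It has no name under the rule used here, but shares an end with the selenoprotein gene SELENOP, with an overlap over union of 0.46 against a minimum of 0.5.

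The window held 42 named protein-coding rows, of which 20 were tested and 17 were not receptors of this set. Among these 17, which leave out rows without a name, none was lower with edgeR (0.00%) and 1 was higher (5.88%), with a median log2 fold change of -0.01. The count of lower rows was also 0 with DESeq2 and at an unadjusted edgeR p under 0.05. The higher one was the ribosomal protein gene RPL37, at 1.88 (SE 0.23, edgeR adjusted p = 3.9e-05). The nearest tested rows beside GHR that have a name and code for protein were RIMOC1, at -0.03 (SE 0.43), and ZNF131, a zinc finger gene, at 0.33 (SE 0.43). Between RIMOC1 and GHR lies the unnamed row ENSG00000151876.13, at -0.58 (SE 0.44, edgeR adjusted p = 0.341).

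Among the tested, named protein-coding rows, LIFR and OSMR are neighbours, between GDNF and RICTOR. GDNF encodes a neurotrophic growth factor and held 52 and 34 reads in arginine-free medium, against 7 and 30 in control medium (log2 fold change 0.89, SE 0.36, edgeR adjusted p = 0.0744). Without control library 2 the GDNF row passed, at 1.75 (edgeR adjusted p = 0.012). RICTOR, the defining subunit of mTORC2, stood at -0.23 (SE 0.33, edgeR adjusted p = 0.627). PRLR and IL7R had DNAJC21 and the ubiquitin ligase subunit SKP2 as their nearest tested rows of that kind, at -0.44 (SE 0.36) and -1.08 (SE 0.52), and neither passed.

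**Figure D3:**
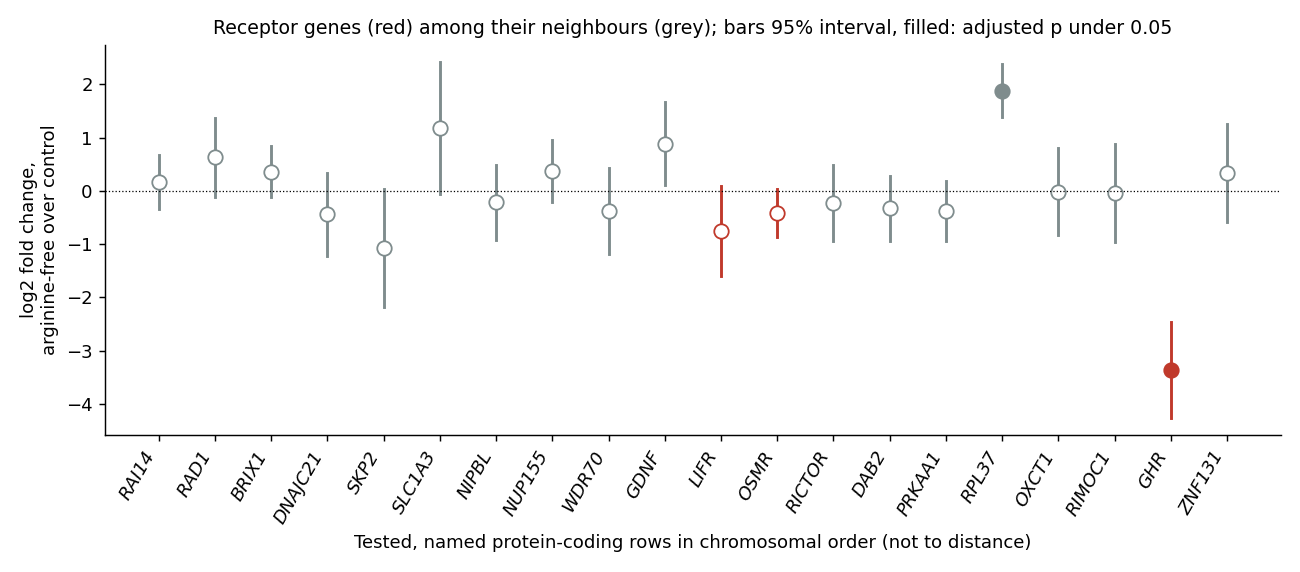
Log2 fold change of arginine-free over control for the 20 tested, named protein-coding rows around the receptors, in chromosomal order but not to distance; bars are 95% intervals from the edgeR fit, filled points passed adjusted p under 0.05, and receptors are red. GHR at -3.35 and RPL37 at 1.88 were the filled points, and OSMR and LIFR had intervals that included 0; rows without a name are not drawn.

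Few other genes of these receptors' pathways could be followed, because most lie where rows are not read as genes. Of 25 other class I cytokine receptors listed, 2 were in the stretches, IL11RA and CNTFR on chromosome 9. Of 17 kinases, STATs and adaptors 1 was there (JAK2). Of 18 inhibitor symbols, which list SH2B3 also as LNK, 1 was there (PIAS4). None of 15 ligands and none of 14 target genes, IGF1 among them, was there. Of the 4 rows, 3 were tested, 1 was lower, and none was higher, against 16.9% lower and 16.0% higher over all tested rows. DESeq2 gave an adjusted p to 2 of them and none to IL11RA, so its count of 0 passing in either direction leaves IL11RA out. At an unadjusted edgeR p under 0.05 the counts were 1 lower and 0 higher.

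IL11RA, the interleukin 11 receptor that works with IL6ST, was the lower one. It held 1 and 3 reads in arginine-free medium, against 8 and 13 in control medium. The levels were 4.33 and 18.8 CPM in arginine-free medium, against 75.4 and 66.7 CPM in control medium. The groups did not overlap, as in 865 of the 2526 tested rows in the same direction and 835 in the other. The log2 fold change was -2.68 (SE 0.72, edgeR adjusted p = 0.0115). IL11RA passed the filter on low counts only through the control libraries, where it was high. From pooled reads it was 6.80-fold lower, with an exact 95% counting interval of 2.30 to 27.3. The call ended without control library 1 (-2.59, edgeR adjusted p = 0.156) and without arginine-free library 1 (-1.80, edgeR adjusted p = 0.15), and without control library 2 the row fell under the filter. DESeq2 gave the row no adjusted p.

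CNTFR, the ciliary neurotrophic factor receptor that pairs with LIFR and IL6ST, had no read in any library. JAK2, the kinase that GHR and PRLR use, held 19 and 15 reads in arginine-free medium, against 12 and 25 in control medium. Its log2 fold change was -0.48 (SE 0.37, edgeR adjusted p = 0.339), with a 95% interval of -1.27 to 0.31. PIAS4, a SUMO ligase that restrains STAT proteins, held 29 and 20 reads in arginine-free medium, against 7 and 26 in control medium (0.23, SE 0.38, edgeR adjusted p = 0.675), and stood at -0.08 without control library 1.

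**Figure D4:**
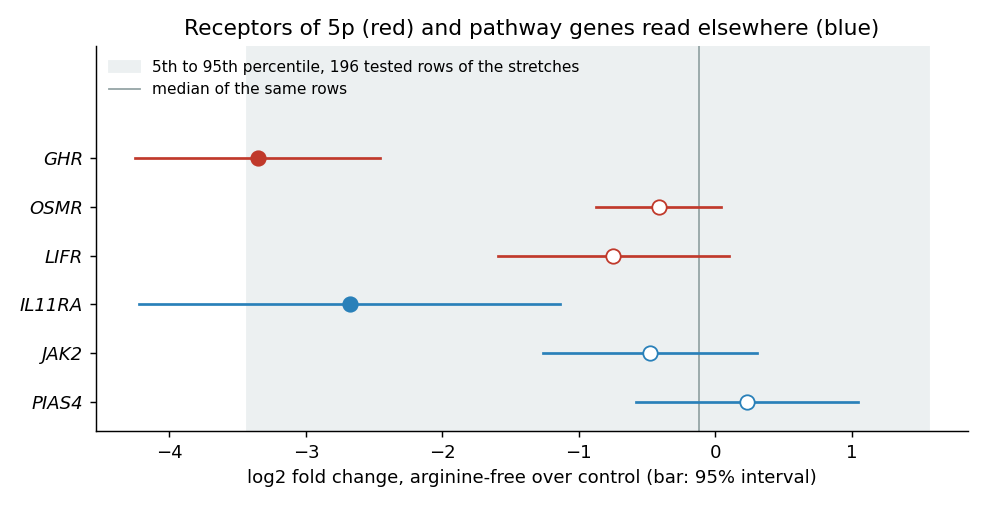
Log2 fold change of arginine-free over control with 95% intervals from the edgeR fit for the tested receptors of 5p (red) and the tested pathway genes on other chromosomes (blue); filled points passed adjusted p under 0.05. The grey band runs from -3.43 to 1.57, the 5th to 95th percentile of the 196 tested rows of the stretches, and the filled points, GHR and IL11RA, both lie inside it. The stretches include histone gene clusters of chromosome 6.

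The rows most like each receptor over the 4 libraries were sought among 124 protein-coding rows of the stretches with a mean of at least 20 reads. Because the stretches include histone gene clusters, histone genes were among these candidates and most other genes of the genome were not. Likeness was the Euclidean distance between log2 CPM values centred on each row's own mean. For GHR these were the histone genes H3C1 (distance 0.34), which held 8 and 2 reads in arginine-free medium, against 36 and 45 in control medium, and H2BC9 (distance 0.56). For OSMR they were DROSHA (0.16), a nuclease of microRNA maturation, and CMBL (0.20), a hydrolase. For LIFR they were EXOC3 (0.17), a subunit of the exocyst, and TCF3 (0.22), a transcription factor. With 4 libraries, such distances are a description only.

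The melanoma label was checked on the 2 of 8 melanocytic marker genes that lie in the stretches. MLANA held 0 and 2 reads in arginine-free medium, against 6 and 10 in control medium. TYRP1 held 1 and 0 in arginine-free medium, against 16 and 25 in control medium. Both melanocytic markers were thus low in the medium in which GHR was low, and their part in the GHR difference was not tested. No lymphoid, myeloid or fibroblast marker lies in the stretches, and the endothelial marker TEK held 0 and 0 reads in arginine-free medium and 2 and 1 in control medium.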

How the data were processed

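The authors assigned footprint reads to gene identifiers with featureCounts 2.0.1, using the basic exon set of GENCODE 47 and no strand option, and deposited whole-number counts, per the file headers. Tools listed in the submitters' processing notes are cutadapt, Bowtie2 2.5.2 and TopHat2, with GRCh37 and hg19 as builds. The labels' protocols state single reads and no removal of ribosomal RNA. Exon length is a column of the deposited table.

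Rows were named by place against RefSeq (GRCh38.p14) as mutual best matches, which named 38563 rows. The minimum overlap over union was 0.5 with a shared end and 0.75 without. The stretches in which rows are read as genes were taken from earlier work on these data. Fits used edgeR 4.0.16 in R 4.3.3 (TMM factors, filterByExpr, quasi-likelihood F test), and p-values were adjusted by Benjamini and Hochberg over all 2526 tested rows, with a threshold of 0.05. Standard errors were worked back from the F statistic. The fit was tested on simulated data. DESeq2 1.42.0 was an alternative. Replicate libraries differed by more than sampling noise (chi-square per degree of freedom 6.51 in arginine-free and 3.68 in control medium). The genes named were the 5 receptors, listed pathway genes in the stretches, the nearest tested neighbours, window rows past the threshold, and the 2 rows most like each tested receptor. Receptors, lists and rules were chosen with earlier results of these data known.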

Additional observations from a re-analysis of the deposited data

How the results depend on the processing

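Scaling to the reads of the window on chromosome 5 was a setting added after seeing the data. GHR stayed lower and past the threshold in all 14 alternatives that could be run, between -4.27 and -2.86 on the log2 scale, and both ends came from leaving out an arginine-free library. Its row did not reach 50 counts in every library of a group. OSMR newly passed with that minimum (-0.65), and OSMR and LIFR newly passed when scaled to window reads (-0.96 and -1.27), but not when RPL37 and SNORD72 were left out of those reads (-0.35 and -0.67). Neither passed in the others, with OSMR between -0.49 and -0.27 and LIFR between -0.95 and -0.43 when 1 library was left out. PIAS4, never past the threshold, ranged from -0.083 to 0.94 when 1 library was left out, and its sign turned without control library 1. Of the neighbouring rows not past the threshold, RICTOR ranged from -0.69 to 0.15 when 1 library was left out, above 0 without arginine-free library 2. RIMOC1 ranged from -0.35 to 0.25 there and was also above 0 with no filter (0.059), on stretch rows only (0.082) and in DESeq2 (0.020). GDNF newly passed without control library 2 (1.75) and on stretch rows only (0.99).

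The minimum of 50 counts left 580 rows, 138 called higher and 146 lower, and 1 higher and 1 lower in the window. DESeq2 called 162 higher and 147 lower over all rows, 1 lower in the window and 0 lower in the pathway lists, where it gave IL11RA no adjusted p. In the fit on stretch rows only, 5 window rows were higher. Leaving out 1 library gave 243 to 389 lower and 270 to 418 higher rows over the table, 2 to 6 higher and 1 to 3 lower in the window, and 0 to 1 lower in the pathway lists. Beyond fewer rows or libraries, the cause was not tested. With the replicate block, GHR stood at -3.41, OSMR at -0.42 and LIFR at -0.70, and no call on a named gene changed. Replicate numbers are shared between groups with no stated pairing, and deviations of same-numbered libraries correlated at -0.08. Depth limits the low rows, with 65 reads in all on LIFR, 71 on JAK2, 25 on IL11RA, 1 on IL7R and 0 on PRLR.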

Other observations

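Beside RPL37, the higher rows of the window were a row without a name under the rule used here and SNORD72. Both were singled out after their values were seen. The row ENSG00000248587.9 (chromosome 5, 37839884 to 38152717), which touches GDNF, held 62 and 16 reads in arginine-free medium, against 1 and 4 in control medium (edgeR adjusted p = 0.000913). The row of the small nucleolar RNA SNORD72 has 80 exon bases, and its place is inside RPL37. It held 742 and 274 reads in arginine-free medium, against 94 and 261 in control medium (edgeR adjusted p = 0.00934). The processing notes name another build for the reads. Whether these reads came from SNORD72 or from other RPL37 sequence was not tested. Without control library 1 the SNORD72 log2 fold change was 0.89 and did not pass (edgeR adjusted p = 0.0989), nor did it pass with the minimum of 50 counts (0.92, edgeR adjusted p = 0.0844), and over the alternatives other than scaling to window reads its edgeR or DESeq2 adjusted p ran between 3.89e-09 and 0.0989.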
